A study of Homo sapiens with 4 samples.

Results

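Histone-high Epi-like cells were the epiblast-like (Epi-like) cells of human blastoids in which 7 replication-dependent histone genes took the largest share of transcript molecules. Within each capture run, Epi-like cells were ranked by the share of their UMIs (unique molecular identifiers, each standing for 1 captured transcript molecule) that came from HIST1H1A, HIST1H1B, HIST1H1C, HIST1H1D, HIST1H1E, HIST1H3B and HIST1H4C, and the top 20% were taken. This gave 2090 histone-high cells of 10445 Epi-like cells, 274 of 1366 in run 1 and 1816 of 9079 in run 2. The series held 24564 barcodes, of which 13017 passed the filters on hashtag, mitochondrial share and depth, and 10902 of these were blastoid cells. A blastoid cell was called Epi-like where its UMIs of KRT8, KRT18, GATA3 and CLDN4 were not above those of POU5F1, DPPA5, DPPA4, L1TD1 and TDGF1. Since the histone share chose the cells, the 7 genes are described without a test, and the class is a range of a score rather than a cell type.

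A cell that copies its DNA must pack the new strands, and most of its histones are made while replication runs. The linker histones of the H1 family bind the DNA between nucleosomes, and the core histones H2A, H2B, H3 and H4 form the nucleosome itself. Their replication-dependent genes lie in clusters, are switched on through NPAT, and give mRNAs that mostly end in a stem-loop bound by SLBP instead of a poly(A) tail, and these mRNAs are degraded when replication ends. Capture of poly(A) RNA therefore reads histone mRNA only in part, and the values of histone genes below are shares of captured UMIs. Differences between histone genes are not read as differences in their mRNA. Near-identical copies within the clusters can also share reads, so the count of any single histone gene is uncertain.

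The cells came from H9, a human embryonic stem cell line, held in the naive state in PXGL medium, depleted of feeder cells and aggregated in AggreWells. Blastoids, which are stem cell models of the blastocyst, were induced in PALLY and then LY medium with dm-αKG (dimethyl 2-oxoglutarate, a cell-permeable form of αKG) at 0 or 4 mM for the first 40 h, and structures with a single cavity were picked by hand at 120 h. Run 1 pooled 4 hashtagged cultures, namely blastoids and 40 h aggregates at each dose, and run 2 pooled 2 blastoid cultures. Each of the 4 blastoid arms (2 runs by 2 doses) was thus 1 hashtagged culture of the same cell line in 1 library. The p-values cover no spread beyond that between these arms, and edgeR pools this spread over genes. In comparisons of classes the pooled value weighed as 34.5 to 105 degrees of freedom, against 3 from the gene itself. For the dose within the class, and for dose differences between classes, the pooled value alone was used.

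The deposited matrices held 144122560 UMIs in run 1 and 200278140 in run 2 over 36601 genes, and 28 barcodes occurred in both runs, 3 of them Epi-like. Histone-high cells held more UMIs than the other Epi-like cells, with medians per arm of 17580 to 35575 against 14830 to 28791, and their median mitochondrial share was 4.17% to 4.58% against 3.98% to 4.42%. The part of these differences in the results was not tested. In 1 alternative, cells were ranked after thinning each to the UMI minimum of its run (7000 in run 1, 5000 in run 2). It gave 1784 genes higher and 1675 lower, where the unthinned ranking gave 1956 and 1837. Thinning changed only the ranking, and the summed counts stayed unthinned, so this alternative leaves the depth difference in the fit. The rule for Epi-like cells sets epiblast against trophectoderm markers, so the sums of these lists follow in part from it. The 18 epiblast markers summed to 5949 to 6244 counts per 1000000 UMIs (CPM) in histone-high cells and 6016 to 6220 in the others, and none of the 18 was at 0. The 20 trophectoderm markers summed to 353 to 411 CPM against 366 to 474, with 0 to 3 of them at 0 in the histone-high cells of an arm. Without the markers that the rule uses, 13 epiblast markers summed to 1165 to 1417 CPM against 1219 to 1485, and the 14 trophectoderm markers past the filter on low counts to 135 to 155 against 125 to 141. The 12 primitive endoderm markers summed to 279 to 307 CPM against 290.2 to 347, with 2 to 5 at 0, and the 8 amnion markers to 24.4 to 32.6 against 27.8 to 30.1, with 1 to 4 at 0.

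The sequences just upstream of the genes that define the class are shown because replication-dependent histone genes are read from short, compact promoters. All 7 rule genes lie on chromosome 6 between positions 26017032 and 27867588 (GRCh38, GENCODE 44), and each has 1 canonical exon. The 130 bases before the start of the gene are given on the coding strand from RefSeq (GRCh38.p14) for the 6 rule genes found in that table, HIST1H1A (chr6:26017788-26017917, minus strand), HIST1H1B (chr6:27867589-27867718, minus), HIST1H1C (chr6:26056471-26056600, minus), HIST1H1D (chr6:26234988-26235117, minus), HIST1H1E (chr6:26156199-26156328, plus) and HIST1H3B (chr6:26032100-26032229, minus), and for HIST2H2AC (chr1:149886788-149886917, plus), an H2A gene outside the rule. Capitals mark the motif CCAAT, the motif TATAAA and the motif AAACACA, and where CCAAT was found on the opposite strand the capitals read ATTGG. The motifs were searched on both strands and do not overlap here.
HIST1H1A: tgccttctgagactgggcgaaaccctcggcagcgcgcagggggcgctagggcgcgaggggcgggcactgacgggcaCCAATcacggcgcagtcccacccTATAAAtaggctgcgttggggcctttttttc
HIST1H1B: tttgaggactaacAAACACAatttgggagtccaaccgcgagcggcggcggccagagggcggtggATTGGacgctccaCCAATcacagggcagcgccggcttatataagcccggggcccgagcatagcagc
HIST1H1C: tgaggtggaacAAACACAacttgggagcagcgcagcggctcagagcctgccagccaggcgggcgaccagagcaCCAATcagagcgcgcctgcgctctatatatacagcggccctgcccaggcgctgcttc
HIST1H1D: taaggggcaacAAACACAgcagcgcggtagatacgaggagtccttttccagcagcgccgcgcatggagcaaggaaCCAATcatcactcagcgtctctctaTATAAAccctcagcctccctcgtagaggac
HIST1H1E: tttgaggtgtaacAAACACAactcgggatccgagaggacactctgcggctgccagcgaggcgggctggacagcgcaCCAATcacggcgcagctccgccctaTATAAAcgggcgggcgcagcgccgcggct
HIST1H3B: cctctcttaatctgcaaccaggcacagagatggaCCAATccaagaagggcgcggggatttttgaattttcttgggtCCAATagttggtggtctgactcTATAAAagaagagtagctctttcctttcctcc
HIST2H2AC: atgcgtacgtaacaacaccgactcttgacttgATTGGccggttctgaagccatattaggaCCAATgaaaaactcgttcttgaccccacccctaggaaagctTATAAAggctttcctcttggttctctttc

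All 6 rule genes found held a CCAAT, against 21.5% of 35116 RefSeq promoters cut to the same length and 54 of 62 histone promoters. In the 5 H1 genes it began 53 to 57 bases before the start, and HIST1H3B held it at 96 and at 54 bases. TATAAA stood in 4 of the 6, HIST1H1A, HIST1H1D, HIST1H1E and HIST1H3B, against 5.99% of all promoters and 33 of 62 histone promoters. AAACACA stood 117 to 119 bases before the start of HIST1H1B, HIST1H1C, HIST1H1D and HIST1H1E, against 2.30% of all promoters and 5 of 62 histone promoters. A match is a description of the letters and not of a bound site.

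The histone share spread without a gap across the threshold. The threshold lay at 0.139% of a cell's UMIs in run 1 and 0.115% in run 2. In run 1 the lowest histone-high cell held 0.139158% and the highest other cell 0.139082%, and in run 2 these were 0.115111% and 0.115023%. Within 10% of the threshold lay 70 Epi-like cells of run 1 and 437 of run 2, so the edge of the class is arbitrary for a sizeable number of cells. The median share was 0.194% in run 1 and 0.170% in run 2, with the highest cells at 0.427% and 0.397%, and the other Epi-like cells had medians of 0.0341% and 0.0214%. In molecules, a histone-high cell held a median of 69 rule-gene UMIs in run 1 and 31 in run 2, and another cell 9 and 3. No rule-gene UMI was found in 18 of the other cells of run 1 (1.65%) and 740 of run 2 (10.2%).

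More of the 7 rule genes were detected per cell in the class, which ranking by their summed share in part brings about, also after thinning. In histone-high cells, 6.46, 6.53, 5.75 and 5.76 of the 7 were detected per cell on average (arms in the order run 1 at 0 and 4 mM, then run 2 at 0 and 4 mM, the order used from here on), and in the other Epi-like cells 3.35, 3.82, 2.16 and 2.196. After each cell was thinned to the same depth within its run the means were 4.38, 4.36, 3.71 and 3.71 against 1.63, 1.86, 1.04 and 1.06. HIST1H4C, a core H4 gene, gave 54.9% of the rule-gene UMIs of histone-high cells and 61.2% of those of the others, and HIST1H1A, a linker H1 gene, 15.04% and 14.8%. HIST1H4C took a smaller part of the rule-gene UMIs in the class than in the other cells, given as a description because these genes chose the cells.

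In CPM of the summed counts of an arm, the linker gene HIST1H1A stood at 286, 266, 261 and 296 in histone-high cells and at 59.2, 65.6, 49.4 and 54.3 in the other Epi-like cells. HIST1H1B stood at 145, 163, 165 and 170.1 against 23.6, 32.7, 20.0 and 20.7. HIST1H1C, which can also give polyadenylated mRNA outside replication, stood at 81.3, 72.5, 94.6 and 84.5 against 20.3, 16.7, 11.9 and 10.7. In all 3 genes every arm of the class lay above every arm of the other cells, which the rule itself brings about. HIST1H1D stood at 169, 186, 148 and 148 CPM against 43.8, 48.8, 20.6 and 18.9. HIST1H1E stood at 86.8, 109.9, 94.4 and 102 against 22.6, 30.3, 16.0 and 17.2. The core genes had the same pattern at other levels. HIST1H3B, an H3 gene, stood at 56.9, 64.8, 45.0 and 48.2 CPM against 11.04, 14.5, 6.73 and 8.14. HIST1H4C stood at 1186, 1195, 953 and 983 against 266, 285, 214 and 209. Summed, the rule genes gave 2011, 2058, 1761 and 1832 CPM against 447, 494, 339 and 339. The fitted log2 ratios ran from 2.16 for HIST1H4C to 2.85 for HIST1H1B, and they are given as a description because these genes chose the cells.

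**Figure D1:**
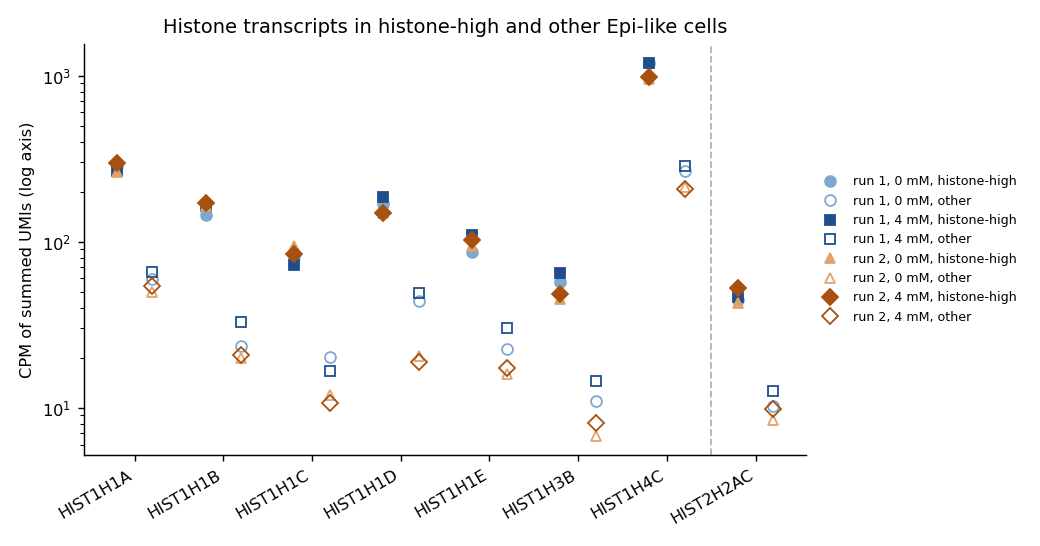
Levels of the 7 rule histone genes and of HIST2H2AC in CPM of summed counts (log axis). Each blastoid arm has 1 point for histone-high cells and 1 for the other Epi-like cells. For HIST1H4C the class lies at 953 to 1195 CPM and the other cells at 209 to 285, and for HIST2H2AC, outside the rule, at 42.5 to 52.6 and 8.39 to 12.7.

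The core genes could be read independently of the ranking when the cells were ranked by the 5 H1 genes alone. In those cells HIST1H4C stood at 1082, 1091, 843 and 899 CPM against 293, 321, 241 and 238 in the rest, a log2 ratio of 1.82 ± 0.024 (SE, 4 arms; adjusted p = 3.87e-50, edgeR quasi-likelihood test with Benjamini-Hochberg adjustment). HIST1H3B stood at 56.7, 65.5, 43.1 and 46.4 against 11.1, 14.5, 7.22 and 8.90, a log2 ratio of 2.36 ± 0.057 (adjusted p = 3.01e-37, edgeR). Cells with much linker histone mRNA were thus also cells with much core histone mRNA, in each arm.

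Histone genes that the rule did not use were higher in the class as well. The other replication-dependent histone genes were taken by name, as all symbols starting HIST1H to HIST4H outside the rule. Whether each of them is tied to replication was not checked. Of 64 such genes in the annotation, 57 passed the filter on low counts, and 56 of these were higher in histone-high cells by the edgeR test. None was lower, and HIST3H2A was not called (log2 ratio -0.17, adjusted p = 0.402, edgeR). The filter reads both classes, so genes of low level that passed it through the class had to differ, such as HIST1H2BA with 37 UMIs in the class and 3 in the others, and the count of genes is given as a description. Over all 14967 genes tested, 1956 were higher (13.1%) and 1837 were lower (12.3%). The median log2 ratio was 2.18 over the 57 histone genes and 0.00 over all genes. Summed, the 64 genes gave 517, 608, 377 and 464 CPM in histone-high cells against 142, 181, 84.4 and 98.9. HIST2H2AC, a core H2A gene on chromosome 1 (149886918 to 149887411, plus strand), was the only one of them whose mean reached 20 CPM, and it stood at 44.5, 46.6, 42.5 and 52.6 against 10.2, 12.7, 8.39 and 9.87. Its log2 ratio was 2.27 ± 0.058 (adjusted p = 2.28e-61, edgeR), and the classes did not overlap. Lower counts lay behind HIST1H3D (log2 ratio 2.68), HIST1H2AH (2.50), HIST1H2AL (2.39) and HIST1H2BH (1.34).

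The genes listed as replication-independent variants had a median log2 ratio of 0.05, against 2.18 for the 57 replication-dependent genes outside the rule. Whether each gene of the variant list, H2AFX among them, is independent of replication was not checked. Of 11 tested, 4 rose, none fell and 7 were not called, and 9 had a ratio above 0. Over all genes tested, 13.1% rose. H2AFX, the H2A variant that is phosphorylated beside DNA breaks, stood at 73.0, 72.5, 72.9 and 68.4 CPM against 40.1, 43.5, 45.1 and 43.8, a log2 ratio of 0.70 ± 0.040 (adjusted p = 6.71e-31, edgeR). CENPA, the H3 variant of centromeres, rose by 0.33, H2AFV by 0.13 and H3F3A by 0.10 on the log2 scale. H2AFZ (-0.02), H3F3B (0.02) and H1F0 (0.05) had ratios near 0 and were not called.

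The genes that serve histone mRNA and histone supply gave a mixed picture. SLBP, which binds the stem-loop of histone mRNA, stood at 101, 95.3, 97.9 and 95.2 CPM in histone-high cells and at 86.1, 100.5, 86.3 and 95.4 in the others, and was not called (log2 ratio 0.06 ± 0.035, adjusted p = 0.186, edgeR). The classes overlapped in SLBP. Of 11 histone mRNA processing genes, 3 rose (CPSF2 by 0.19, CASP8AP2 by 0.18 and NPAT by 0.16), LSM11 fell by 0.38 and 7 were not called. Over all genes tested, 13.1% rose and 12.3% fell. Of 15 histone chaperones, which carry new histones to DNA, 8 rose, 2 fell and 5 were not called, with a median of 0.11. The subunits of the chromatin assembly factor CHAF1B and CHAF1A rose by 0.34 and 0.26, and NASP, which stores free histones, by 0.22 (log2). DAXX, the chaperone of the H3 variant encoded by H3F3A and H3F3B, fell by 0.18.

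With the replication-dependent histone genes left out, the median size of a called log2 ratio was 0.23, and 133 of the higher and 250 of the lower genes passed 1.5-fold. Of all 3793 called genes, 3047 had the same sign in all 4 arms. Calls were more frequent among well-read genes, with 2160 called of 5080 tested at a mean of at least 20 CPM. Counts of called genes in the lists below are descriptions to be read beside that share and the 13.1% higher and 12.3% lower of all genes.

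Among genes with at least 20 CPM, GDF15, a secreted stress cytokine of the TGF-beta family, had the largest rise after HIST2H2AC. It stood at 35.4, 39.6, 27.0 and 25.7 CPM in histone-high cells against 20.9, 15.3, 17.8 and 12.1, a log2 ratio of 0.96 ± 0.064 (adjusted p = 1.45e-25, edgeR). Every arm of the class lay above every arm of the others. FOXM1, the transcription factor of the G2 and mitotic programme, stood at 49.1, 54.5, 53.5 and 49.4 CPM against 28.1, 31.2, 29.9 and 31.3 (log2 ratio 0.76 ± 0.045, adjusted p = 2.07e-29, edgeR). SKA3, a kinetochore protein, rose by 0.61, CDCA8, the borealin subunit of the chromosomal passenger complex, by 0.60, KIF11, a spindle kinesin, by 0.59, and CDCA3, which promotes mitotic entry, by 0.61.

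Genes of DNA synthesis and repair stood beside them. RAD51AP1, which acts in homologous recombination, stood at 92.3, 91.3, 96.8 and 96.7 CPM against 58.7, 54.0, 62.4 and 61.4 (log2 ratio 0.67 ± 0.035, adjusted p = 1.83e-33, edgeR). The classes did not overlap. PIF1, a DNA helicase, rose by 0.61. ATF5, a stress-responsive transcription factor, rose by 0.69, RESF1, a silencing factor of retroelements, by 0.63, the secreted SCGB3A2 by 0.75 and the formin DIAPH3 by 0.60 (all adjusted p at or below 2.49e-19, edgeR).

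The largest falls included the pair of genes whose products work at the exit from mitosis. PTTG1, the securin that holds separase inactive until anaphase, stood at 90.9, 75.9, 99.6 and 87.6 CPM in histone-high cells and at 166, 135, 169 and 154 in the others, and fell by 0.80 ± 0.032 on the log2 scale (adjusted p = 1.48e-43, edgeR). CDC20, the activator of the anaphase-promoting complex, stood at 48.2, 42.1, 48.2 and 48.7 against 67.3, 62.4, 69.6 and 74.4 and fell by 0.56 ± 0.040 (adjusted p = 2.26e-23, edgeR). Both were lower in all 4 arms while FOXM1, AURKB (0.55) and TOP2A (0.47) were higher. ATXN7L3B stood at 12.9, 15.5, 15.05 and 13.7 CPM against 25.4, 31.9, 25.0 and 24.8 and fell by 0.85. MIR302CHG, the host transcript of the miR-302 cluster of pluripotent cells, fell by 0.68, the surface protein CD24 by 0.54, the galectin LGALS1 by 0.58, the lamin gene LMNA by 0.51 and CDCA7, a chromatin factor of the G1/S transition, by 0.53. HPDL (-0.67), FBXL20 (-0.60), TAF7 (-0.58), EID1 (-0.57), CHML (-0.55), DANCR (-0.53) and RGCC (-0.51) completed the genes that the rule for named genes took.

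**Figure D2:**
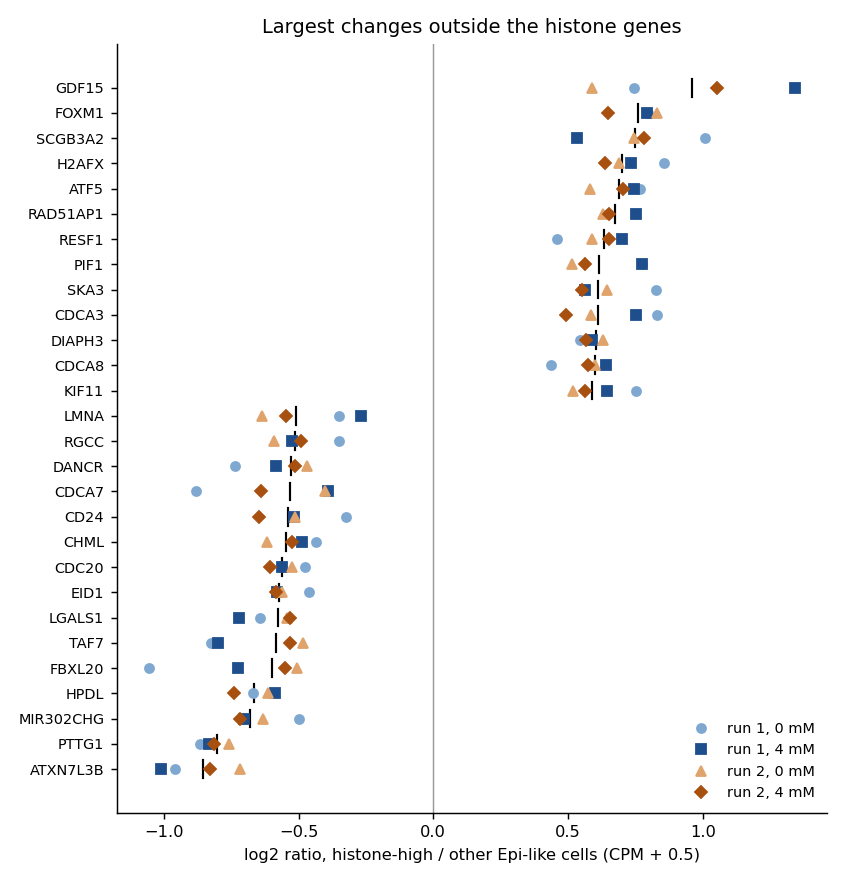
Log2 ratio of CPM (with 0.5 added) in histone-high over other Epi-like cells for the genes with the largest called changes outside the histone genes (1 is left out), with 1 point per blastoid arm. GDF15, with a fitted ratio of 0.96, lies between 0.59 and 1.34, and PTTG1 lies between -0.87 and -0.76 in all 4.

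Genes of origin licensing were called in both directions, and most genes of the replication fork rose. Of 21 genes for origin licensing and entry into S phase, 3 rose, 6 fell and 12 were not called, with a median log2 ratio of -0.04 that turned to 0.07 with the top 30% of cells. The helicase subunits MCM5 and MCM6 fell by 0.38 and 0.31, and MCM6 stood at 54.2, 61.9, 63.0 and 55.1 CPM against 76.2, 74.1, 72.1 and 73.6. GINS1, a subunit of the active helicase, went the other way and rose by 0.42. Of 29 genes of the replication fork and of nucleotide reduction, 24 rose, 1 fell (TIPIN, by 0.27) and 4 were not called, with a median of 0.24. RRM2, the small subunit of ribonucleotide reductase, stood at 69.8, 86.6, 73.4 and 81.2 CPM against 55.0, 61.8, 51.7 and 54.3 (0.53 ± 0.037, adjusted p = 1.12e-23, edgeR). Its partner RRM1 rose by 0.48, the primase PRIM1 by 0.45 and the polymerase clamp PCNA by 0.27. In RRM2 every arm of the class lay above every arm of the others.

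Genes of chromosome cohesion, repair and G2/M were mostly higher where called. Of 18 cohesin and condensin genes, 12 rose and 1 fell (RAD21, by 0.11), with a median of 0.22. CDCA5, which secures sister chromatid cohesion, rose by 0.59, the acetyltransferase ESCO2, which establishes cohesion during replication, by 0.50 and SMC1A by 0.46. Of 17 DNA repair and replication checkpoint genes, 9 rose and none fell, and BRCA1 stood at 56.0, 56.6, 65.8 and 58.1 CPM against 39.7, 40.9, 40.7 and 40.5 (0.57 ± 0.042, adjusted p = 9.54e-23, edgeR). Of 54 G2/M genes of the widely used Seurat list, 43 rose, 4 fell and 7 were not called, with a median of 0.27. MKI67, the proliferation marker that coats mitotic chromosomes, stood at 90.9, 96.6, 107 and 108 CPM against 54.7, 65.3, 78.0 and 79.5 (0.49 ± 0.034, adjusted p = 3.13e-24, edgeR). The Seurat S phase list, of which 43 genes were tested, had 26 higher and 9 lower with a median of 0.18. The 22 genes of mitotic entry and exit had 12 higher and 5 lower, the 5 being PTTG1, CDC20, HMMR, KIF20A and CCNB2.

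The 3 D-type cyclins, which act at the G1/S decision, fell in the class, CCND1 and CCND2 by 0.32 each and CCND3 by 0.23. CDK4, their partner kinase, rose by 0.23. Among the inhibitors of cyclin-dependent kinases, CDKN1C fell by 0.42, and CDKN1A and CDKN1B rose by 0.53 and 0.23. Of 8 DNA methylation genes, DNMT1, the maintenance methyltransferase of replicating DNA, rose by 0.24 and TET1 by 0.13, and UHRF1, DNMT3L, DNMT3A and TET3 fell. HMGB2 rose by 0.40 among 10 HMG chromatin proteins, of which 4 rose and 4 fell.

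Targets of p53 and of ATF4 were raised as well. Of 15 p53 targets, 11 rose, none fell and 4 were not called, with a median log2 ratio of 0.26. CDKN1A, the inhibitor p21, stood at 16.5, 33.2, 18.3 and 19.3 CPM against 15.7, 16.2, 16.2 and 13.1, and its larger differences lay in the 4 mM arms. MDM2, the ubiquitin ligase of p53, stood at 180.0, 188, 184 and 181 against 159.8, 134, 165 and 144 (0.30 ± 0.031, adjusted p = 1.18e-14, edgeR). BAX, a pore-forming inducer of apoptosis, rose by 0.26. Of 16 ATF4 targets, 11 rose, 1 fell (PHGDH, by 0.07) and 4 were not called, with a median of 0.19. TRIB3, a pseudokinase induced by stress, rose by 0.43 and CHAC1, which degrades glutathione, by 0.33. GDF15 and SESN2 stand on both lists. Of 15 immediate early genes 6 rose and 2 fell, with EGR1 (0.68) and FOS (0.41) among the former and MYC (-0.39) among the latter. Of 12 heat shock genes 4 rose and 6 fell.

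Naive pluripotency genes were lower by a small amount. Of 17 tested, 11 fell, 2 rose and 4 were not called, with a median log2 ratio of -0.18. TFCP2L1, a naive transcription factor, fell by 0.39, the alkaline phosphatase ALPG by 0.34, the surface marker SUSD2 by 0.29 and KLF17 by 0.28. Of 10 core pluripotency genes 3 rose and 5 fell. POU5F1 stood at 845, 931, 880.4 and 904 CPM against 865, 955, 889 and 875 and was not called (log2 ratio 0.00 ± 0.020, adjusted p = 0.996, edgeR). NANOG stood at 121, 189, 115 and 138 against 148, 214, 140.4 and 170.5 and fell by 0.26 ± 0.029 (adjusted p = 1.33e-12, edgeR). L1TD1, 1 of the genes of the Epi-like rule, rose by 0.24, and TCF7L1, a repressor in the Wnt pathway, by 0.68. TCF7L1 did not meet the rule for named genes on level (20 CPM) and direction.

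The remaining lists moved less or in both directions. Of 22 cholesterol synthesis genes, 9 fell, 1 rose and 12 were not called, with INSIG1 (-0.48), HMGCS1 (-0.36) and MSMO1 (-0.31) furthest down. Of 19 nucleotide synthesis genes 8 rose and 2 fell, led by MTHFD2 (0.37) and MTHFD1 (0.34), enzymes of folate metabolism. Of 18 glycolysis genes 6 rose and 2 fell with a median of 0.03. Of 94 ribosomal protein genes 7 rose and 14 fell with a median of -0.01, and of 13 mitochondrially encoded genes 3 rose and 1 fell. Of 14 formative and primed genes 2 rose and 2 fell. Among the marker lists tested, 4 epiblast markers rose and 9 fell of 18, 1 trophectoderm marker rose and 3 fell of 18, 2 primitive endoderm markers rose and 1 fell of 7, and 1 amnion marker fell of 4.

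Cutting the Epi-like cells of each run into 5 equal parts by histone share placed these lists along the gradient, as a description without a test. The other replication-dependent histone genes climbed steeply in the last parts, for example 59.3, 62.7, 79.0, 178 and 464 CPM from the lowest to the highest part in run 2 at 4 mM. Licensing genes peaked before the top, at 747, 989, 1226, 1179 and 1021 CPM in run 1 at 0 mM and 948, 1051, 1196, 1299.9 and 1079.7 in run 2 at 4 mM. In each arm the highest level of the licensing list fell in part 3 or 4. Fork genes were highest in part 4 or 5, with 1354, 1443, 1644, 1933 and 1959.8 CPM in run 2 at 0 mM. The p53 targets were highest in the upper parts, with 837, 831, 832, 920.4 and 1042 CPM in run 2 at 4 mM. The G2/M list had its lowest level in part 2 or 3 and its highest in part 5, as in run 1 at 4 mM with 4326, 3732, 4632, 5444 and 5679.7. Naive genes went from 9372 CPM in the lowest to 8409 in the highest part in run 1 at 0 mM, and the highest part had the lowest level of the 5 in each arm. Depth moved along the same gradient, with median UMIs of 13498 in the lowest and 17704.5 in the highest part of run 2 at 0 mM, and its part in these patterns was not tested.

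**Figure D3:**
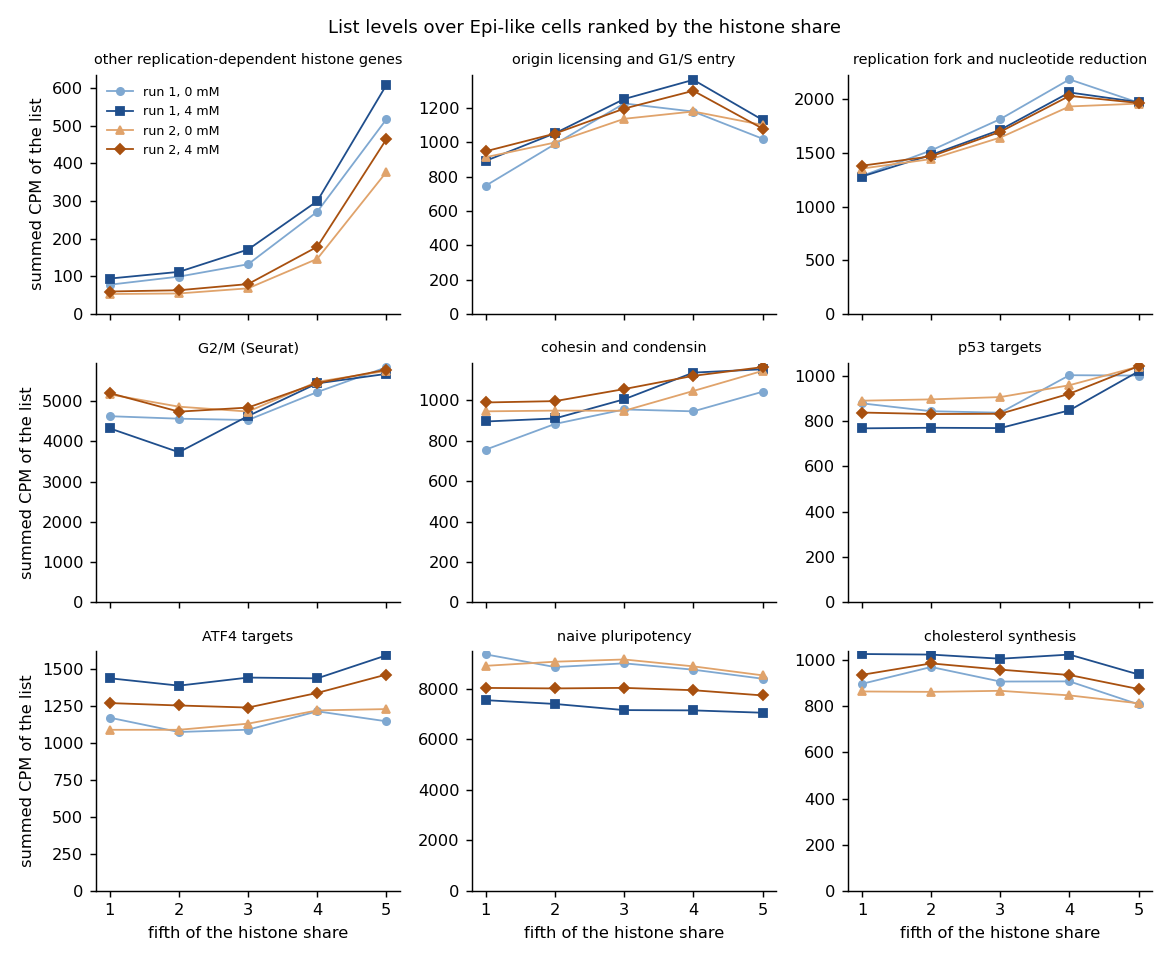
Summed CPM of 9 gene lists in the Epi-like cells of each run cut into 5 equal parts by histone share, from lowest (1) to highest (5), with 1 line per blastoid arm. Licensing genes peak in part 3 or 4 (1226 CPM in part 3 in run 1 at 0 mM), while the other replication-dependent histone genes climb to 377 to 608 CPM in part 5, which is the histone-high class.

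The class was compared with its neighbours in the cell cycle, which were chosen by other genes. An early S set was the top 20% of Epi-like cells in each run by share of the licensing genes, and a G2/M set the top 20% by share of the genes of mitotic entry and exit. Of the histone-high cells, 46 in run 1 (16.8% of each set) and 312 in run 2 (17.2%) were also in the early S set, and 56 (20.4%) and 216 (11.9%) were in the G2/M set. In neither set were 172 histone-high cells of run 1 (62.8%) and 1290 of run 2 (71.0%). Each set held 20.1% of the Epi-like cells of run 1 and 20.0% of those of run 2. Cells in both sets were left out of the comparisons below, and the genes that chose a set were not tested against it. Other genes of the same cycle phases were tested, so the direction of the fork and G2/M lists may follow in part from the choice of the sets.

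Against early S cells, 2186 genes were higher in histone-high cells (16.5% of 13248) and 2019 were lower (15.2%). Genes of mitosis were higher. PLK1, a kinase of mitotic entry, stood at 57.8, 46.6, 54.2 and 53.6 CPM against 13.9, 8.46, 17.5 and 17.0 (log2 ratio 1.87 ± 0.079, adjusted p = 6.19e-30, edgeR). AURKA, a centrosomal kinase, was higher by 1.72 and TOP2A, the topoisomerase that untangles replicated DNA, by 1.47. Of 54 G2/M genes 48 were higher and none lower, with a median of 0.59, and of 22 genes of mitotic entry and exit 21 were higher. HIST2H2AC was higher by 2.03, HIST1H2AL by 1.94 and GDF15 by 1.55. Of 54 other replication-dependent histone genes 52 were higher, with a median of 1.82.

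Other genes were lower against the same cells, where the licensing genes were not tested. CDCA7 stood at 16.1, 17.4, 18.6 and 14.0 CPM against 48.8, 46.7, 51.9 and 49.6 (log2 ratio -1.53 ± 0.075, adjusted p = 7.96e-27, edgeR). UHRF1, which recruits DNMT1 to new DNA, was lower by 1.43 on the log2 scale, with 19.8, 19.2, 19.7 and 18.3 CPM against 70.4, 67.3, 48.8 and 51.3. ATAD2 (-1.21), the nuclease EXO1 (-1.12), ATXN7L3B (-1.08) and the fork protein TIPIN (-1.08) followed. Of 29 fork genes 2 were higher and 15 lower, with a median of -0.21, and of 33 testable genes of the Seurat S phase list 1 was higher and 25 were lower. Of 17 repair genes 10 were lower and none higher.

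SLBP separated the class from early S cells although it did not separate it from all other Epi-like cells. It stood at 82.8, 76.2, 83.8 and 80.8 CPM in histone-high cells and at 156, 182, 144 and 172 in early S cells, a log2 ratio of -0.92 ± 0.047 (adjusted p = 3.74e-26, edgeR). Against G2/M cells it stood at 107, 106, 103 and 99.7 against 57.6, 61.1, 66.1 and 63.7 (0.68 ± 0.046, adjusted p = 9.30e-15, edgeR). NPAT, the activator of histone genes, had ratios of -0.35 and 0.60 in these comparisons, both called. SLBP in the class thus lay below its level in early S cells and above that in G2/M cells in each arm, without overlap. The class levels in these comparisons come from different subsets, histone-high cells outside the early S set and those outside the G2/M set. The other Epi-like cells also lay between the early S and the G2/M cells, so this position is not particular to the class.

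Against G2/M cells, 1773 genes were higher in histone-high cells (13.2% of 13443) and 1891 were lower (14.1%). DUT, which clears dUTP during DNA synthesis, stood at 231, 230.3, 212 and 215 CPM against 91.8, 88.2, 82.9 and 85.0 (log2 ratio 1.34 ± 0.037, adjusted p = 3.67e-27, edgeR). HIST2H2AC was higher by 2.70, ATAD2 by 1.01, NETO2 by 0.85 and the p53 target ZMAT3 by 0.81. Of 29 fork genes 23 were higher and none lower, with a median of 0.43, and of 21 licensing genes 16 were higher and none lower, also with a median of 0.43. The largest falls were in these genes. DEPDC1 stood at 7.61, 5.20, 7.75 and 6.24 CPM against 33.7, 31.5, 39.8 and 32.8 and was lower by 2.41 ± 0.090 on the log2 scale (adjusted p = 7.45e-23, edgeR). ARL6IP1 (-1.49), MEIOB (-1.43), the kinetochore adaptor KNSTRN (-1.36), the phosphatase CDKN3 (-1.35) and PRR11 (-1.25) were next. Of 41 testable G2/M genes 38 were lower and none higher.

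Across the 3 comparisons, which share the histone-high cells and the arms, some lists changed sign and others did not. For the fork and G2/M lists the change of sign may follow in part from how the sets were chosen. The fork list had medians of 0.24 against all other Epi-like cells, -0.21 against early S cells and 0.43 against G2/M cells, and the G2/M list 0.27, 0.59 and -0.67. The p53 targets had medians of 0.26, 0.21 and 0.35, with 11, 8 and 12 of 15 genes higher and 0, 1 and 0 lower. ATF4 targets had 11 higher and 1 lower of 16 against the other Epi-like cells, 15 higher and none lower against early S cells, but 3 higher and 5 lower against G2/M cells. Heat shock genes had 10 of 12 lower and none higher against G2/M cells.

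**Figure D4:**
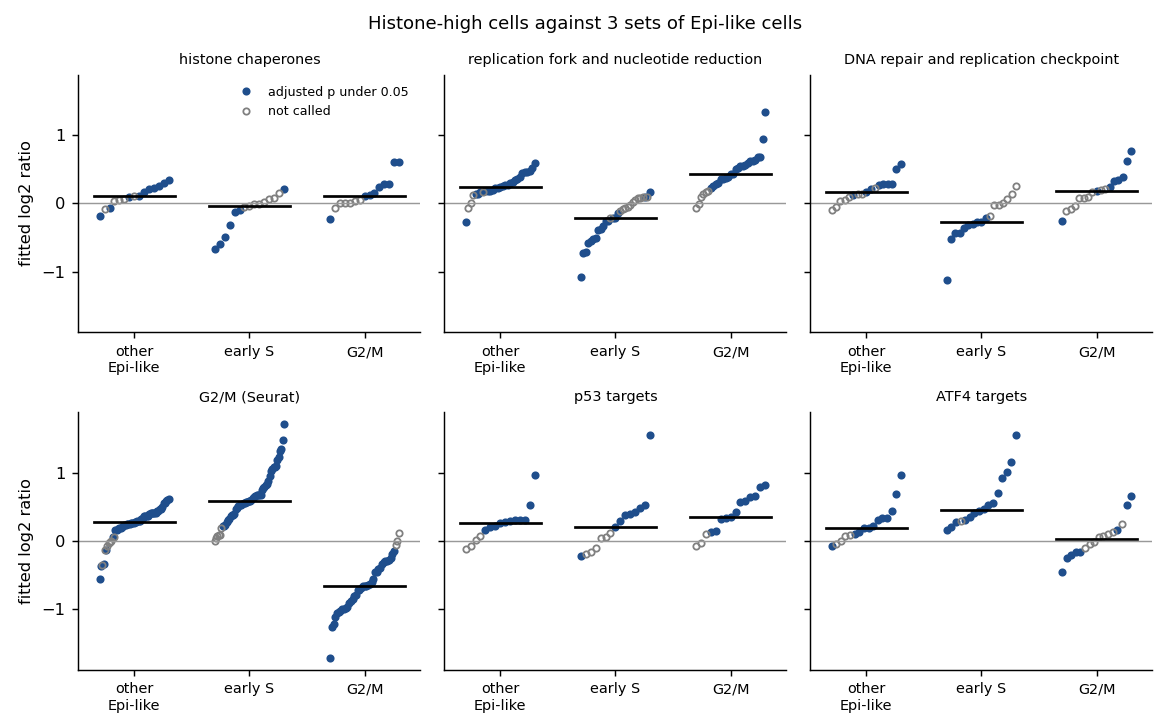
Fitted log2 ratio of each gene of 6 lists in histone-high cells against the other Epi-like cells, the early S set and the G2/M set, with filled points for adjusted p under 0.05, open points for genes not called and a bar at the list median. The fork list lies above 0 against the other Epi-like and the G2/M cells (medians 0.24 and 0.43) and below 0 against the early S cells (-0.21), while the p53 list lies above 0 in all 3 (0.26, 0.21 and 0.35).

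The share of histone-high cells was higher at 4 mM than at 0 mM dm-αKG in both runs. It was 17.5% at 0 mM (63 of 360 Epi-like cells, exact 95% interval 13.7% to 21.8%) and 21.0% at 4 mM (211 of 1006, 18.5% to 23.6%) in run 1, and 18.1% (720 of 3978, 16.9% to 19.3%) and 21.5% (1096 of 5101, 20.4% to 22.6%) in run 2. The order was the same in 16 of 16 pairs of shares over 2 runs and 8 ways of choosing the cells. These pairs reuse largely the same cells of the same 4 cultures and are not independent. The intervals cover counting error only, and the rule fixes the share of each run at 20%. The mean difference was 3.43 percentage points (exact permutation of the doses within runs, two-sided p = 0.5, the smallest that 4 assignments allow). The share of the early S set was 14.2% and 22.2% in run 1 and 18.6% and 21.1% in run 2, and that of the G2/M set 20.3%, 20.0%, 19.5% and 20.4%.

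Within the histone-high cells, 182 genes were higher at 4 mM (1.39% of 13138) and 101 were lower (0.769%). DESeq2 called 10 and 3, edgeR without the run as a term 42 and 9, and a hashtag share of at least 95% left 26 and 3. DDIT4, an inhibitor of mTORC1 induced by stress, stood at 70.7 CPM at 0 mM and 189 at 4 mM in run 1, and at 67.7 and 146 in run 2 (log2 ratio 1.204 ± 0.089, adjusted p = 4.66e-37, edgeR). CHAC1 went from 17.0 to 34.4 and from 16.5 to 36.3 (1.11), THY1 from 9.18 to 44.6 and from 16.5 to 28.0 (1.08), and the NODAL antagonist LEFTY1 from 24.3 to 70.3 and from 27.2 to 44.5 (0.92). FOXD3-AS1 (0.95), FBP1 (0.93), CCL26 (0.82) and BCL11A (0.82) were the next largest. ALPG, an alkaline phosphatase of naive cells, stood at 539 and 285 CPM in run 1 and at 527 and 350.5 in run 2, and fell by 0.75 ± 0.083 (adjusted p = 5.27e-16, edgeR). HPDL (-0.67), FXYD6 (-0.57), the long noncoding RNA NEAT1 (-0.53), HILPDA (-0.53), TJP3 (-0.52), FBXL15 (-0.52) and MIR205HG (-0.50) also fell, though MIR205HG had a log2 ratio of -0.04 in run 1 and -0.73 in run 2. These fits rest on 4 sums with 1 residual degree of freedom, and their p-values use a spread pooled over genes, not that of each gene.

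Among the fixed lists, core pluripotency genes and ATF4 targets had several genes higher at 4 mM in the class. Of 10 core pluripotency genes 5 rose at 4 mM and none fell (median log2 ratio 0.28), SALL4 by 0.43, LIN28A by 0.42, NANOG by 0.40, SOX2 by 0.32 and TDGF1 by 0.30. Of 16 ATF4 targets 8 rose and none fell (median 0.38). In all Epi-like cells, which include the class, 6 of the 10 and 10 of the 16 rose. Of 17 naive pluripotency genes tested in the class, 2 rose, 1 fell and 14 were not called (median -0.05). Of 29 fork genes and 21 licensing genes none was called by edgeR (2 and 1 at an unadjusted p under 0.05), with median log2 ratios of 0.00 and 0.00. Of 54 G2/M genes 1 rose and 2 fell, and of 54 other replication-dependent histone genes 1 rose (median 0.28). The rule genes had log2 ratios from -0.17 to 0.19 between doses within the class, a range that the threshold bounds.

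The rule genes were therefore also compared between doses in all Epi-like cells of an arm, a comparison added after the data were seen, in which 1280 genes were higher (7.49% of 17094) and 932 lower (5.45%). HIST1H1B stood at 48.7 CPM at 0 mM and 63.9 at 4 mM in run 1 and at 47.9 and 55.8 in run 2 (log2 ratio 0.28, adjusted p = 0.000149, edgeR). HIST1H1E stood at 35.9 and 49.3 and at 31.1 and 37.2 (0.33, adjusted p = 2.21e-05), HIST1H3B at 20.6 and 26.5 and at 14.1 and 17.5 (0.33, adjusted p = 0.000657), and HIST1H1A at 106 and 114 and at 90.2 and 111 (0.21, adjusted p = 0.00360). HIST1H1D had a ratio of 0.16 (adjusted p = 0.0488). HIST1H4C (0.13, adjusted p = 0.0754) and HIST1H1C (-0.04, adjusted p = 0.786) were not called, and HIST1H1C stood at 32.9 and 30.1 and at 27.8 and 28.0 CPM. Under the DESeq2 test, none of the 7 was called (adjusted p from 0.102 to 1).

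The effect of the dose differed between histone-high and other Epi-like cells for 5 of 14974 genes, 4 with the more positive ratio in the class (0.0267%) and 1 with the more negative (0.00668%). GDF15 had log2 dose ratios of 0.16 and -0.07 in the class (runs 1 and 2) and of -0.44 and -0.53 in the other cells, a difference of 0.57 ± 0.118 (adjusted p = 0.00642, edgeR). CDKN1A had 0.99 and 0.08 against 0.04 and -0.30 (difference 0.60 ± 0.132, adjusted p = 0.0165, edgeR), so its difference was larger in run 1. DDIT4 rose in both classes, with 1.41 and 1.10 in the class and 0.91 and 0.83 in the others (0.33 ± 0.071, adjusted p = 0.0152, edgeR). PLEKHH3 had 0.41 and 0.11 against -0.31 and -0.26 (0.45 ± 0.082, adjusted p = 0.000227, edgeR). FABP5, a fatty acid carrier, had -0.18 and 0.05 against 0.28 and 0.18 (-0.25 ± 0.044, adjusted p = 0.000165, edgeR). No difference was called by DESeq2, and none was called by edgeR without the 4 mM arm of run 1. In edgeR 643 of the 14974 genes had an unadjusted p under 0.05, fewer than the 1 in 20 that chance alone would give.

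**Figure D5:**
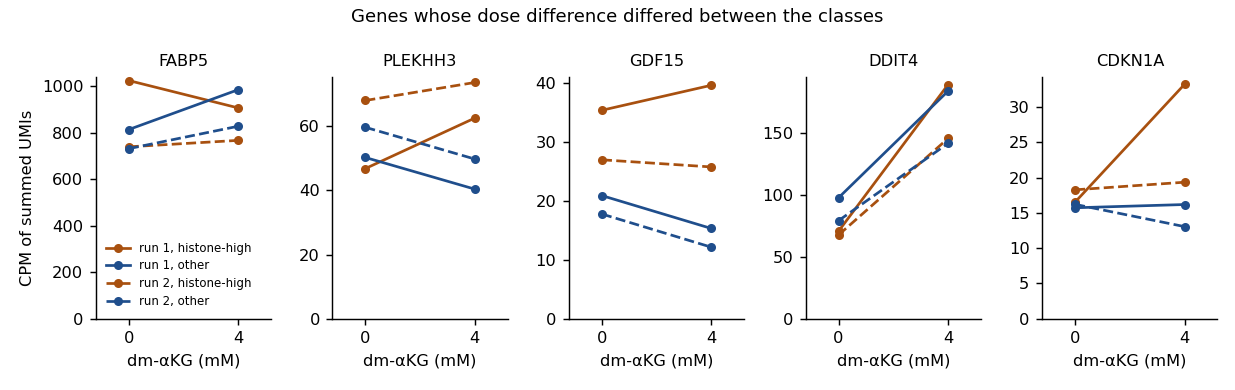
CPM at 0 and 4 mM dm-αKG in histone-high and other Epi-like cells of each run for the 5 genes whose dose effect differed between the classes. GDF15 goes from 20.9 to 15.3 and from 17.8 to 12.1 CPM in the other cells, and from 35.4 to 39.6 and from 27.0 to 25.7 in the histone-high cells.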

How the data were processed

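Gene counts of 2 10x Genomics 3′ libraries of H9 cells were analysed. Per the submitters' processing notes the authors used bcl2fastq 2.20.0.422, Cell Ranger 6.1.2, Seurat 4.3.0 and GRCh38, and they deposited unnormalised UMI counts per gene and barcode. Hashtag UMIs from the same deposit gave each barcode its culture.

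Barcodes were kept with 1 hashtag at 80% or more of hashtag UMIs, mitochondrial UMIs at 15% or less, and at least 7000 (run 1) or 5000 (run 2) UMIs. Doublets within a culture were not called. For each class of cells in an arm the counts were added up and compared with edgeR 4.0.16 (limma 3.58.1, R 4.3.3): TMM factors, filterByExpr, quasi-likelihood test, arm as a term, Benjamini-Hochberg adjustment over all genes tested, threshold 0.05. Dose fits had the run as a term. An error given after ± is the standard error of the log2 ratio. The rule genes stayed in the totals, were not tested between classes chosen by them, and were tested between doses; HIST1H4C and HIST1H3B were also tested between classes ranked by the H1 genes alone. CPM are shares of a class's summed counts. Cells, tables and figures were handled in Python 3.11.15, and DESeq2 1.42.0 was an alternative. Intervals of shares are exact (Clopper-Pearson, 95%) and cover counting error only. The scripts were tested on simulated counts. The Wilcoxon test over single cells that the study used was not used here because cells are not replicates.

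Named genes were those with an adjusted p under 0.05, a mean level of 20 CPM or more and 1 direction in all arms, the 15 largest each way for the first comparison, 6 each way against early S and G2/M cells and 8 each way for the dose. The rule genes, other histone genes of at least 20 CPM and genes of the described lists were named as well. Gene names follow the files. A gene that the rule took in the first and the G2/M comparison is not reported here by name. The members and the lists were chosen with earlier results of these data known. Alternatives were other scalings, filters, tests, thresholds, hashtag and marker limits, and leaving out each arm.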

Additional observations from a re-analysis of the deposited data

Results flagged for a closer look

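In 2 of 59 sets of 4 arm ratios tested, 1 arm lay far from the other 3 for its range; chance gives about 1 in 20, or 2.95 sets. TOP2A, histone-high against early S cells, had a log2 ratio of 1.635 in run 1 at 4 mM and 1.298 to 1.344 elsewhere. EXO1, against early S cells, had -1.385 in run 1 at 0 mM and -1.186 to -1.168 elsewhere. Both arms kept the direction of the others.

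The dose effect differed between histone-high and other Epi-like cells, by the interaction term of the edgeR fit, for 5 genes: by -0.253 for FABP5, 0.455 for PLEKHH3, 0.569 for GDF15, 0.326 for DDIT4 and 0.601 for CDKN1A on the log2 scale. Run 1, with 63 histone-high cells at 0 mM, is the thinner of the runs behind these values.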

How the results depend on the processing

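All counts are given as genes higher and lower. Against the other Epi-like cells (main 1956 and 1837) DESeq2 called 903 and 683, a hashtag share of 95% gave 1170 and 1097, and the top 10% gave 1289 higher. Leaving out each arm gave 1054 to 1890 higher and 918 to 1880 lower, lowest without run 2 at 4 mM. Against early S cells (2186 and 2019) DESeq2 called 1150 and 700, the 95% hashtag share gave 1239 lower, and leaving out each arm 1399 to 2244 and 1115 to 1927, lowest without run 2 at 4 mM. Against G2/M cells (1773 and 1891) DESeq2 called 733 and 786, the 95% hashtag share 1093 and 1127, and leaving out each arm 1028 to 1891 and 1032 to 1962, lowest without run 2 at 4 mM and with 1173 and 1195 without run 2 at 0 mM. For the dose within the class (182 and 101) DESeq2 called 10 and 3, no run in the model gave 42 and 9, the top 10% 81 and 25, the top 30% 390 and 267, and the 95% hashtag share 26 and 3. For the dose in all Epi-like cells (1280 and 932) DESeq2 called 158 and 60 and no run in the model gave 8 and 1. In that comparison HIST1H1A, HIST1H1B, HIST1H1D, HIST1H1E and HIST1H3B lost their call under DESeq2 (adjusted p from 0.102 to 0.750) and under edgeR without the run (0.204 to 0.792), and HIST1H1D also without a filter on low counts (adjusted p = 0.0799, edgeR).

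For the difference of dose effects between classes (4 and 1) DESeq2 and the top 30% gave 0 and 0, the top 10%, the 95% hashtag share, the stricter marker limit and the H1 genes alone 1 and 0, thinning 2 and 2, and leaving out the 5% of cells with most UMIs 2 lower; leaving out each arm gave 0 to 6 and 0 to 5, with 0 and 0 without run 1 at 4 mM, and 2 and 5 lower without run 2 at 0 mM and at 4 mM. The edgeR fit had 643 of 14974 genes at an unadjusted p under 0.05, fewer than 1 in 20. The number of such genes thus depended on the choice of cells, arms and test.

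The share of histone-high cells follows the threshold by construction: the top 10% gave 8.06%, 10.7%, 8.35% and 11.3% per arm and the top 30% 27.8%, 30.8%, 28.8% and 31.0%. The median of the trophectoderm markers (0.06) reversed to -0.13 with the top 10%, -0.0225 with the top 30%, -0.0249 with the 95% hashtag share and -0.0345 with the H1 genes alone; in all, 465 of 480 refitted list medians had the sign of the main fit. The median of the licensing genes (-0.04) turned to 0.07 with the top 30%, 0.02 after thinning and 0.07 with the H1 genes alone, and that of the cyclin D and CDK inhibitor list (0.05) to -0.08 without run 2 at 0 mM and -0.07 after thinning. The other sign changes were in the formative and primed, HMG and glycolysis lists, whose main medians lay between -0.01 and 0.03. Named genes kept direction and call in 480 of 480 refits against other Epi-like cells and 180 of 180 against each of the early S and G2/M sets; for the dose 150 of 176 kept the call and 26 lost it. Why these counts moved was not tested, beyond the fewer cells or arms that some settings leave. The labels give no replicate numbers that pair cultures. Both doses share each run, and the run, or the arm, was a term of every main fit; the counts without the run are given above. Leaving out an arm in the dose fits leaves no residual degree of freedom and was not run.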

Other observations

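Cells above the same thresholds of histone share were also found outside the Epi-like cells, which the rule did not rank. Among TE-like blastoid cells (marker UMIs of trophectoderm above those of epiblast) they made up 27.8% (5 of 18, exact 95% interval 9.69% to 53.5%) in run 1 at 0 mM and 42.9% (24 of 56, 29.7% to 56.8%) at 4 mM. In run 2 the shares were 33.2% (69 of 208, 26.8% to 40.0%) and 33.7% (59 of 175, 26.8% to 41.2%). In the 40 h aggregates of run 1 they were 31.1% at 0 mM (316 of 1017, 28.2% to 34.0%) and 25.0% at 4 mM (274 of 1098, 22.4% to 27.6%). All 6 shares lay above that of the Epi-like blastoid cells of the same run and dose, though the intervals overlapped for the TE-like cells of run 1 at 0 mM and for the aggregates at 4 mM. For the aggregates the 0 mM share was the higher one, the opposite order to the blastoids, with 1 culture per dose and no test. Depth, cell type and culture age differ between these cells and cannot be told apart here.

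Several genes with the largest falls in histone-high cells (ATXN7L3B, HPDL, TAF7 and EID1) are annotated with 1 exon, which was noticed after their values were seen. The protein-coding genes with 1 canonical exon in GENCODE 44 were taken without the genes whose symbols start HIST1H to HIST4H. The variant H2AFX, which has 1 canonical exon, stayed in and was among the higher. Of these genes, 160 were not called, 78 were lower against the other Epi-like cells (31.0%, edgeR, adjusted p under 0.05) and 14 were higher (5.56%), with a median log2 ratio of -0.18. Among 12580 genes with 2 or more exons, 1562 were lower (12.4%) and 1806 higher (14.4%), with a median of 0.00. With a mean of at least 20 CPM, 22 of 56 single-exon genes were lower (39.3%) and 12 higher (21.4%), against 18.3% and 24.1% of 4933 genes with more exons. Against G2/M cells, 51 of 214 single-exon genes were lower (23.8%) and 12 higher (5.61%), and against early S cells 53 of 210 were lower (25.2%) and 28 higher (13.3%). At higher levels the last comparison had the other order, since of 56 single-exon genes with at least 20 CPM, 24 were higher and 13 lower against early S cells. The list was chosen after seeing values and carries no test.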
